A study of Capra hircus with 3 samples.

Results

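In the dorsal skin of goat fetuses at embryonic day 60 (E60), 820 of 6849 cells (12.0%, exact binomial 95% interval 11.2% to 12.8%) carried transcripts of at least 3 of 6 genes: THBS4, COL2A1, CYTL1, TNMD, FBLN7 and ANGPTL1. The cells were chosen by that rule, a value above 0 for at least 3 of the 6 genes, and are called members here. The working name of the population, tendon- or cartilage-like mesenchyme, was checked against markers that the rule did not use. Members carried several tendon genes at higher levels than the other 6029 E60 cells, among them KERA, FMOD, COL12A1, THBS2 and MKX. Cartilage genes outside the rule were divided. SOX9 and ACAN were both near 0 in members, with 7 and 8 counted transcripts. SOX9, PTH1R and CNMD were lower in members than in the other cells, whereas ACAN, COL11A1, COL11A2 and HAPLN1 were higher. The tendon factor SCX was also near 0 in members, with 4 counted transcripts. The low SOX9 went against the cartilage side of the name, but these genes together did not settle it. Most members were cells with high DLK1, ASPN, MFAP5 and SMOC2, and a small subset held most of the COL2A1 together with TNMD and KERA. The cells are therefore called by the rule or by their leading genes below.

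The study measured single-cell transcriptomes of dorsal skin from fetuses of the Northern Shaanxi White Cashmere goat, a fibre breed. Each of E60, E90 and E120 was represented by 1 library. E60 skin was incubated with collagenase IV and broken up by pipetting, and cells of at least 2 fetuses were pooled before barcoding, so the E60 library had no replicate and no value below has a replicate check, a p-value or a standard error. E90 skin was dissociated in the same way, whereas the E120 library was made from hair follicles dissected out of the skin. No genotype or treatment separated the stages, and the labels gave no sort or gate. Because the rule was applied to the same cells whose genes are compared, every difference between members and other cells is a description of these 2 sets of cells in 1 library. Intervals cover counting error only.

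Tendon is a collagen I tissue made by fibroblasts in which the transcription factors scleraxis (SCX) and Mohawk (MKX) act early. Tenomodulin (TNMD), fibromodulin (FMOD), keratocan (KERA), thrombospondins and fibril-associated collagens mark its maturing cells. Cartilage depends on the transcription factor SOX9, which drives type II collagen (COL2A1) and aggrecan (ACAN). Skin of the back lies over fascia, a connective sheet that shares many matrix genes with both tendon and dermis.

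The E60 library held 65049552 UMIs (unique molecular identifiers, each a single counted transcript), and the median cell had 8579. Members held 7833978 UMIs in all, with a lowest of 6269, a median of 8216 and a highest of 29454 per cell, and the other cells had a median of 8611 and a highest of 43941. Median genes per cell were 1826.5 in members and 1823 in the others, and the median mitochondrial share was 5.08% and 4.46%. Few barcodes were shared with the other libraries: 9 E60 barcodes with E90, of which 2 were members, and 10 with E120, of which 1 was a member. Markers of surface epithelium and the skin's keratinocytes were nearly absent from the E60 library, with summed levels over 8 genes of 0.894 CPM (UMIs scaled to a total of 1000000) in members and 1.28 CPM in the others, so the library labelled as skin was almost all non-epithelial cells. The deposited table held 20676 cells, beside 19705 in the study's own description of the series.

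Cells with 3 or more of the rule genes were found almost only at E60. At E60, 4032 cells had none of the 6 genes, 1561 had 1, 436 had 2, 265 had 3, 276 had 4, 192 had 5 and 87 had all 6. At E90, 2 of 6931 cells had 3 genes and none had more, and at E120 none of 6896 cells had 3. The libraries differed in depth, so each cell was also reduced at random to 2400 UMIs. The rule then took 469 E60 cells (6.85%, 6.26% to 7.47%) and none at the later stages, where 0 cells allow a share of up to 0.0433% at E90 and 0.0435% at E120 by the floor of 3 cells, or 0.0532% and 0.0535% by the exact interval. Stage and library were the same thing here, and at E120 also the tissue taken, so these cannot be told apart. Just inside the rule, the 265 cells with 3 genes had a median of 8433 UMIs, and just outside it the 436 cells with 2 genes had a median of 8594.5.

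**Figure D1:**
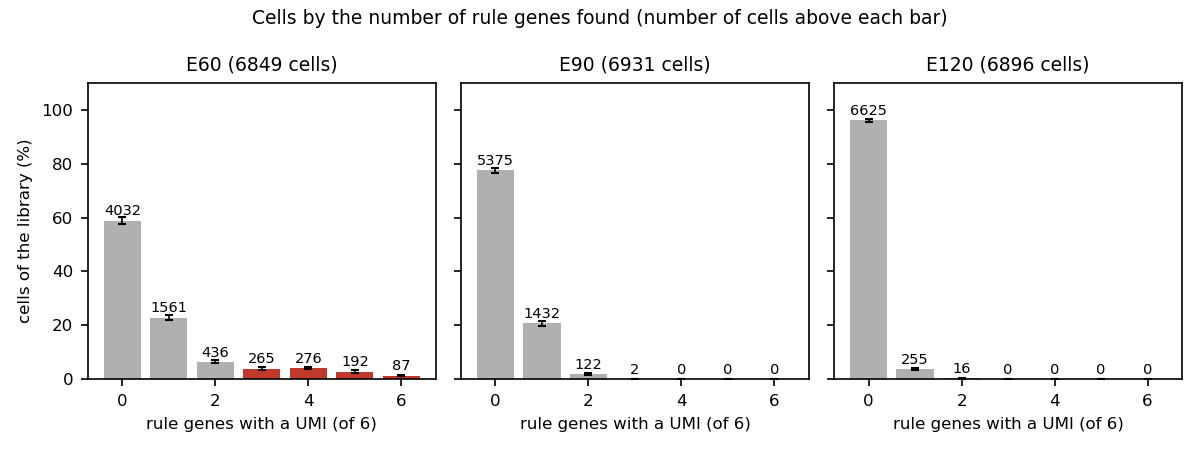
Cells by the number of the 6 rule genes with at least 1 UMI, in percent of the cells of each library, with exact binomial 95% intervals and the number of cells above each bar; red bars are cells with 3 or more. The red bars hold 265, 276, 192 and 87 cells at E60, 2 cells at E90 and none at E120.

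The rule genes encode secreted or membrane proteins of connective tissue, and their values follow from the choice of cells. THBS4 (thrombospondin 4, a matrix glycoprotein of tendon and muscle) stood at 1077 CPM in members and 26.8 CPM in the others, with a UMI in 82.1% and 14.6% of cells. TNMD, a membrane protein of tendon fibroblasts, stood at 1353 and 47.9 CPM, with 72.2% and 11.8% of cells. ANGPTL1, a secreted angiopoietin-like protein, was the rule gene with a UMI in most members, 91.6%, against 4.86% of the others. CYTL1, a small secreted protein known from cartilage, was found in 69.8% of members and 4.16% of the others, and FBLN7, a fibulin of the matrix, in 71.2% and 2.87%. COL2A1 had the smallest share among members, 25.5% against 2.01%, with 183 and 2.90 CPM. The median member thus held no COL2A1 UMI, while single members reached 31 of them.

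The levels of each rule gene were also read in cells chosen without it, as 3 or more of the other 5 genes. Chosen in that way, 669 cells had 1252 CPM of THBS4 against 34.5 in the rest (36.2-fold), 646 cells had 1505 CPM of TNMD against 70.0 (21.5-fold), and 810 cells had 183 CPM of COL2A1 against 3.25 (56.3-fold). CYTL1 was 45.0-fold higher, FBLN7 29.2-fold and ANGPTL1 19.2-fold higher in cells chosen without them. All 6 genes thus marked overlapping cells. The 6 were chosen with earlier results of these data known, so this overlap describes the choice and does not support it. The overlap was uneven. Of the 330 E60 cells with a COL2A1 UMI, 57.0% (51.4% to 62.4%) also had TNMD, against 17.1% of cells without COL2A1. Of 1044 cells with ANGPTL1, 51.7% had FBLN7, against 3.74% of those without. The commonest combinations were THBS4, CYTL1, FBLN7 and ANGPTL1 without the other two, and the same 4 with TNMD, each in 112 cells.

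Free RNA in the droplets can put UMIs into cells that do not express a gene, so shares were set beside those of other cell types, gated on marker genes. Among 87 non-member cells with at least 3 of 7 myeloid markers (median 8865 UMIs), shares ranged from 2.30% for COL2A1 and FBLN7 to 10.3% for TNMD. Among 112 non-member cells with at least 4 of 10 endothelial markers (median 16409 UMIs), 69.6% had a THBS4 UMI, while the other 5 genes stood between 0.893% for COL2A1 and 14.3% for FBLN7. With every cell reduced to 6000 UMIs, THBS4 was found in 75.5% of members, 44.6% of endothelial-gated cells, 10.9% of all other cells and 2.30% of myeloid-gated cells. THBS4 was therefore not particular to the members, and the remaining rule genes were at 5.36% or less in the endothelial gate at that depth. The gates covered endothelial and myeloid cells only. Many other cells with THBS4 lay elsewhere in the E60 clustering below. Clusters 7, 9 and 12 held 155, 107 and 91 non-member cells with a THBS4 UMI, against 78 in cluster 16, led by PLVAP. FBLN7 was found in 56.5% of cluster 26 (23 cells, led by CCL21 and MMRN1), in 11 non-member cells. TNMD was not particular to the members either. In cluster 3 of the E60 clustering below (502 cells, 255 members), 219 non-member cells had a TNMD UMI and 70 an ANGPTL1 UMI. COL2A1 was at 23.4% in members, 1.34% in the other cells and 0% in both gates.

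Outside the members COL2A1 gathered in a further set of cells. When the E60 cells were clustered, cluster 21 (60 cells, with TFAP2B, NDST3, CNMD and CDH19 among its leading genes) had 124 CPM of COL2A1. It held 26 of the 121 non-member cells with a COL2A1 UMI. In that cluster 48.3% of cells had a COL2A1 UMI and 18.3% a TNMD UMI, and only 6 of its cells were members. Cluster 16 (117 cells, led by PLVAP, DEPP1 and VWF) had 195 CPM of THBS4 but 20.3 CPM of TNMD, and held 7 members.

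Among tendon and ligament genes outside the rule, 7 of the 9 with at least 20 CPM in either set were at least 2-fold higher in members, none was 2-fold lower, and the median log2 ratio was 2.64. Over all 3909 genes at that level, without the rule genes, 8.08% (316 genes) were at least 2-fold higher in members. Another 4.94% (193 genes) were at least 2-fold lower, 3400 genes were within 2-fold, and the median log2 ratio was -0.05. These shares are the background of every list count below. KERA, a keratan sulfate proteoglycan of tendon and cornea, had 315 UMIs in members (40.2 CPM) and 24 in all other cells (0.419 CPM), a 95.9-fold ratio with an interval of 63.3 to 152. Only 14.3% of members held a KERA UMI, against 0.348% of the others. FMOD, which regulates collagen fibril growth, stood at 441 and 63.5 CPM (6.93-fold, 6.61 to 7.26). COL12A1, a collagen on the surface of fibrils, stood at 226 and 17.8 CPM, and THBS2 at 280 and 20.3 CPM. COL14A1 and TGFB2, a ligand needed for tendon formation, were also higher, with 139 against 28.1 CPM and 128 against 19.7 CPM.

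The tendon transcription factors divided. MKX stood at 163 CPM in members and 48.5 CPM in the others (3.36-fold, 3.15 to 3.60), but it was found in 33.4% of the other cells as well as in 59.3% of members. SCX had 4 UMIs in members and none in the others, which is 0.511 CPM with an interval of 0.139 to 1.31. In all cells, SCX had 4 UMIs at E60, 3 at E90 and none at E120, so its transcript was hardly counted anywhere in these libraries. EGR1, a further factor of tendon that also responds to dissociation, stood at 40.3 and 34.4 CPM, within 2-fold. EGR2 had 4 UMIs in the whole E60 library, none of them in members, so it did not compare the sets. TNC (tenascin C) ran the other way, with 367 CPM in members and 603 CPM in the others, within 2-fold. COMP, an abundant protein of mature tendon and cartilage, had 27 UMIs in members (3.45 CPM) and 0.0524 CPM in the others.

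**Figure D2:**
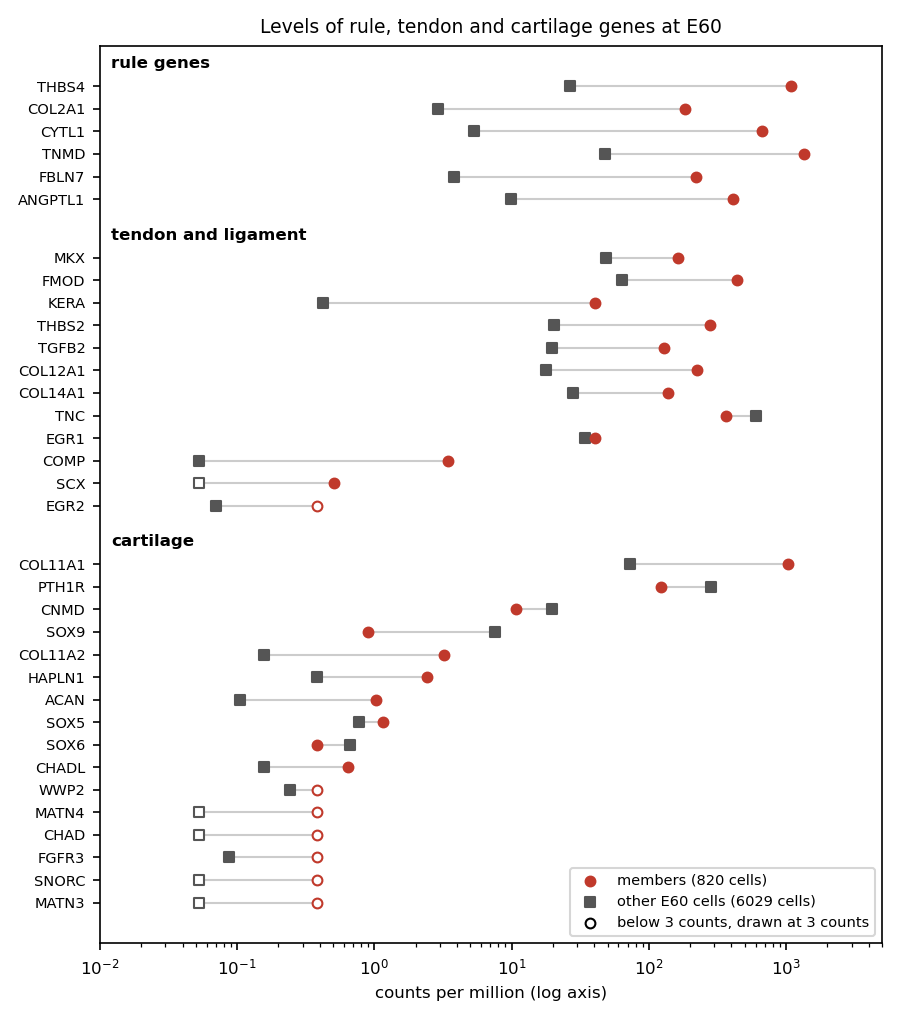
CPM, on a log axis, of the rule genes and of the tendon and cartilage marker genes outside the rule, in members (red circles) and other E60 cells (grey squares); open symbols lie below 3 counts and are drawn at that floor, and levels should be compared within a gene only. KERA stands at 40.2 against 0.419 CPM and COL11A1 at 1036 against 73.3 CPM, whereas SOX9 stands at 0.894 against 7.59 CPM.

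The cartilage list gave a different picture. Of its 17 genes in the table outside the rule, only COL11A1 and PTH1R reached 20 CPM. COL11A1, a collagen that nucleates fibrils in cartilage and in other tissues, stood at 1036 CPM in members and 73.3 CPM in the others (14.1-fold, 13.6 to 14.7), with a UMI in 92.4% and 34.9% of cells. PTH1R, the receptor of parathyroid hormone and its related peptide, was lower in members, with 123 against 282 CPM. SOX9 had 7 UMIs in 820 members, 0.894 CPM (0.359 to 1.84), against 7.59 CPM in the others, where 3.65% of cells held one. SOX9 was countable with this assay, since the E90 library had 328 CPM of it. Some cartilage genes were higher in members at levels of few UMIs. ACAN had 8 UMIs in members, 1.02 CPM against 0.105 CPM in the others (9.74-fold, 2.96 to 34.1), and HAPLN1 had 19, 2.43 CPM against 0.385 CPM (6.31-fold, 3.23 to 12.2). COL11A2 had 25 UMIs in members, 3.19 CPM against 0.157 CPM. MATN3 and SNORC had no UMI in the whole E60 library and FGFR3 had 5, none of them in members, so these genes did not compare the sets. CNMD (chondromodulin, a relative of TNMD) stood at 10.9 CPM in members and 19.7 CPM in the others, in 2.68% and 3.72% of cells. Cluster 21 had 1350 CPM of it, in 93.3% of its cells. The large clusters 1 and 2, with few members, had 2.27 and 2.87 CPM. Clusters 10 and 14, made up mostly of members, had 0 and 2.27 CPM. The members thus had few SOX9 and ACAN transcripts, with SOX9 below and ACAN above the other cells, while COL2A1 and COL11A1 were well counted.

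RUNX2 and SPP1 of the bone list were lower in members, while the joint and synovium list was carried by CILP and OTOR. RUNX2, the transcription factor of bone, stood at 5.49 CPM in members and 16.0 CPM in the others. SPP1 (osteopontin) stood at 135 and 1125 CPM, although a similar share of cells held it, 61.2% and 57.0%. SPP1 was also the first leading gene of cluster 20 (70 cells, 0 members), with the macrophage genes CD163 and TREM2. The part of that cluster in the SPP1 difference was not tested. PRG4 (lubricin, of joint surfaces) was at 0 in both. CILP, a matrix protein of cartilage and tendon, and OTOR were at least 2-fold higher, with 324 against 46.9 CPM and 203 against 71.2 CPM. They were the 2 genes of that list with at least 20 CPM, and the list summed to 537 and 126 CPM.

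In whole libraries, COL2A1 was highest at E60 with 24.6 CPM, and stood at 1.16 CPM at E90 and 0.0749 CPM at E120. CYTL1 stood at 84.7 CPM at E60 and had no UMI at E90 or E120. TNMD stood at 205, 6.54 and 1.21 CPM, and THBS4 at 153, 36.8 and 2.87 CPM. KERA stood at 5.21 CPM at E60 and 0.165 CPM at E90, and had no UMI at E120. FMOD stood at 109, 16.6 and 1.88 CPM and MKX at 62.3, 16.8 and 0.396 CPM. Against that order, SOX9 was highest at E90, with 6.78, 328 and 33.7 CPM, and HAPLN1 likewise, with 0.630, 8.22 and 1.13 CPM.

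The genes furthest above the other cells were matrix and signalling genes. Among symbols with at least 100 CPM, FGF18 led: this growth factor of skeletal development stood at 173 CPM in members and 5.84 CPM in the others (29.7-fold, 26.3 to 33.6), with a UMI in 44.9% and 4.08% of cells. ASPN (asporin, a small proteoglycan that binds collagen and TGF-beta) stood at 1967 and 76.9 CPM (25.6-fold, 24.7 to 26.5) and was found in 97.7% of members. DLK1, a membrane protein of immature mesenchyme and preadipocytes, stood at 4918 and 245 CPM (20.1-fold, 19.7 to 20.5), in 94.6% and 34.0% of cells. ASPN and DLK1 were thus found in more members than any rule gene. SERPINF1 (696 against 50.3 CPM), THBS2 and PCOLCE (1685 against 167 CPM, an enhancer of procollagen processing) were also found in most members, with shares of 95.2%, 85.0% and 99.1%.

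Fascia and hypodermis genes were mostly higher in members. Of 6 with at least 20 CPM, 5 were at least 2-fold higher, beside 8.08% of all genes. PPARG, the adipocyte transcription factor, was lower with 9.96 against 36.3 CPM. MFAP5, a microfibril protein of fascial fibroblasts, stood at 1678 and 114 CPM, and SEMA3C at 132 and 12.8 CPM. PI16 was at 0 in both sets, and CEBPA was at 0 in members and 0.402 CPM in the others, so these genes did not compare the sets. Of 8 dermal fibroblast genes, 3 were higher, 1 lower and 4 within 2-fold. COL1A1 stood at 6235 and 1205 CPM and COL1A2 at 4763 and 1112 CPM, with both found in 99.9% of members. DCN, LUM and PDGFRA were within 2-fold, so the broad fibroblast genes were common to both sets. LEF1, a WNT effector of the upper dermis and hair follicle, stood at 19.9 against 66.8 CPM.

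**Figure D3:**
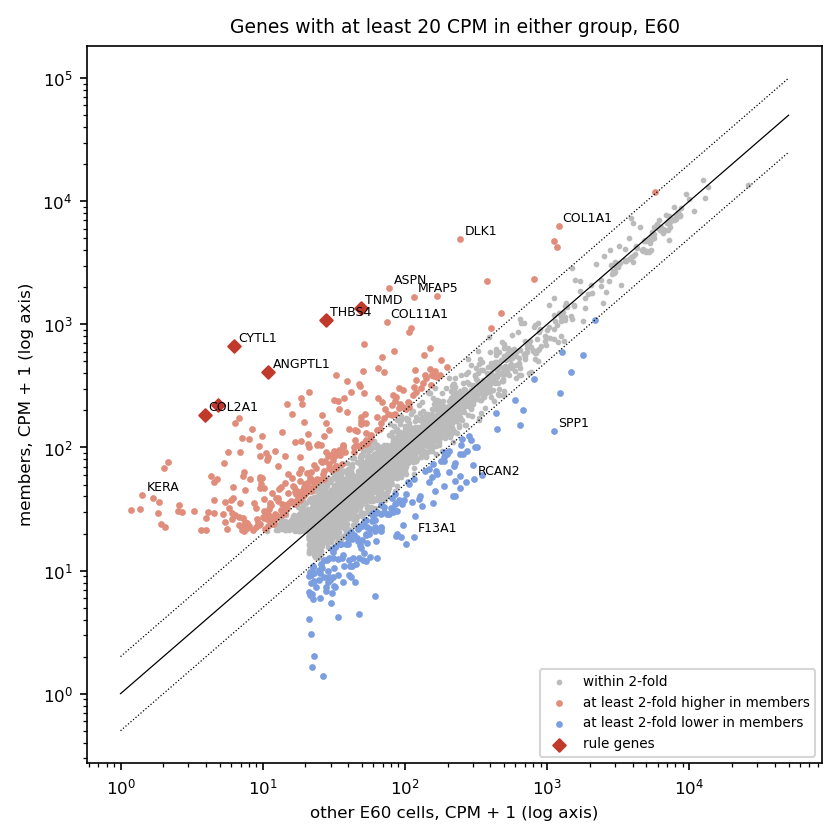
Level of each gene with at least 20 CPM in either set, as CPM + 1 in members (vertical, log axis) against the other E60 cells (horizontal, log axis); the solid line marks equality, dotted lines mark 2-fold, and diamonds are the rule genes, which the choice of cells raised. Of 3909 genes, 316 lie at least 2-fold above the line and 193 at least 2-fold below it.

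Collagens were mostly higher in members and the enzymes that process them in part, beside 8.08% of all genes higher and 4.94% lower. Of 13 collagen genes with at least 20 CPM outside the rule, 8 were at least 2-fold higher, 1 was lower and 4 were within 2-fold, with a median log2 ratio of 1.69. COL6A6 stood at 32.9 against 1.59 CPM and COL24A1 at 265 against 81.4 CPM, whereas COL6A3 stood at 14.7 against 31.1 CPM. The basement membrane collagens COL4A1 and COL4A2 were within 2-fold and lower in value. Of 10 processing genes, 4 were higher and none lower. LOX, which cross-links collagen, stood at 61.5 and 16.9 CPM, and ADAMTS2, which trims procollagen, at 86.5 and 31.8 CPM. Of 7 small leucine-rich proteoglycans, 5 were higher, among them BGN with 612 against 83.1 CPM and OGN with 2343 against 813 CPM. Of 27 matrix glycoproteins, 10 were higher and 3 lower, the lower ones being CCN1, HAPLN3 and MATN2. SMOC2 stood at 864 and 106 CPM.

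Signalling lists held genes on both sides, beside 8.08% of all genes at least 2-fold higher and 4.94% lower. In the TGF-beta and BMP list 8 of 16 genes were higher and none lower. BAMBI, a decoy receptor, stood at 117 and 6.13 CPM, BMP5 at 28.3 and 0.839 CPM, the BMP-binding protein BMPER at 28.8 and 1.71 CPM, and the ligand TGFB3 at 57.6 and 6.27 CPM. In the WNT list 7 of 14 genes were higher and 3 lower. The higher ones included the secreted WNT antagonists SFRP4 (30.8 against 0.367 CPM), SFRP1 (223 against 13.8 CPM), DKK2 (123 against 8.83 CPM) and FRZB (46.3 against 5.16 CPM). DKK1, also an antagonist, was lower, with 18.8 against 87.1 CPM, as was the agonist RSPO3 with 29.9 against 82.4 CPM. The members were therefore rich in some WNT antagonists and poor in another.

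The FGF, hedgehog and IGF list was balanced, with 5 of 16 genes higher, 5 lower and a median log2 ratio of -0.02. Over all genes 8.08% were higher and 4.94% lower. IGF1 stood at 385 against 31.7 CPM, IGF2 at 99.7 against 20.2 CPM, and IGFBP6, which binds IGF2, at 249 against 17.5 CPM. FGFR2 stood at 21.3 against 67.5 CPM, the hedgehog receptor PTCH1 at 11.7 against 30.1 CPM, and IGFBP5 at 190 against 437 CPM. Members thus stood above the other cells in both IGF genes and below them in FGFR2 and PTCH1. Among 16 other secreted factors 7 were higher and 3 lower. ANGPTL5 stood at 75.3 against 1.15 CPM, the chemokine CCL11 at 156 against 5.40 CPM and PTN (pleiotrophin) at 928 against 109 CPM, while CXCL14 stood at 407 against 1476 CPM.

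Patterning transcription factors separated the sets in both directions. Of 15 with at least 20 CPM, 7 were higher and 2 lower, beside 8.08% and 4.94% of all genes. MEOX1 and MEOX2, homeobox factors of the somite lineage, stood at 57.8 against 3.34 CPM and 195 against 38.4 CPM, and TBX3 at 54.4 against 8.60 CPM. RUNX3 was lower, with 7.79 against 40.6 CPM. All 4 HOX genes with at least 20 CPM were within 2-fold, such as HOXC8 with 32.7 and 34.5 CPM. All 10 cell-cycle genes were within 2-fold too, with summed list levels of 1244 and 1341 CPM. Over all genes 3400 of 3909 were within 2-fold, so neither list stood apart from that share. Of 5 genes that respond to dissociation, FOSB was higher, with 366 against 139 CPM, and 4 were within 2-fold, with JUN at 2281 and 1569 CPM.

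The genes furthest below the other cells were a mixed group of regulators, adhesion molecules and enzymes. RCAN2, a regulator of calcineurin, stood at 54.0 CPM in members and 306 in the others, and was found in 17.0% and 68.8% of cells. CDH6, a cadherin, stood at 51.6 and 269 CPM, and HS3ST6, a heparan sulfate sulfotransferase, at 46.0 and 244 CPM. CHN1, ZNF536, ANPEP, CDC42EP3 and F13A1 were also among the 10 lowest genes, with SPP1, which led cluster 20. Of the genes named here, those other than SPP1 were found in a smaller share of members than of other cells. Much of what members held of these genes came from 1 subset of them. Sub-cluster 4 of the members, described below, held 248 of their 423 RCAN2 UMIs, a level of 173 CPM, against 7.35 CPM in sub-cluster 1 and 14.0 CPM in sub-cluster 2.

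Markers of other cell types were read beside these differences. Mural genes were partly high: KCNJ8 (55.5 against 8.90 CPM), ABCC9 (156 against 27.1 CPM) and NOTCH3 (70.0 against 31.9 CPM) were at least 2-fold higher. ACTA2 stood at 171 against 211 CPM. RGS5 was hardly counted in either set, with 1 UMI in members (0.128 CPM) and 0.280 CPM in the others. The summed mural list stood at 461 and 287 CPM. The endothelial list summed to 51.3 and 124 CPM, the myeloid list to 3.96 and 66.4 CPM, the skeletal muscle list to 121 and 157 CPM, and the erythroid list to 193 and 879 CPM. C1QA and C1QB had 8 and 5 UMIs in members. MYF5, PAX7 and CDH15 were at 0 in members and MYOD1 had 3 UMIs. The glial genes S100B and ERBB3 were at 0 in members. The part of these cells' RNA in the differences above was not tested.

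The leading genes did not switch on at the threshold. All 15 were higher in the cells with 2 rule genes than in those with none, and higher again with 3 than with 2. DLK1 stood at 74.5 CPM with none of the rule genes, 252 with 1, 1637 with 2, 5027 with 3, 5596 with 4, 4795 with 5 and 2972 with all 6. It thus peaked at 4 genes and was lower in cells with all 6. MFAP5 behaved alike, with 687 CPM at 2 genes, 1969 at 3 and 780 at 6. CCL11 stood at 219 CPM at 3 genes and 17.4 at 6. COL11A1 instead climbed throughout, with 45.4, 89.3, 250, 525, 874, 1548 and 1893 CPM. FMOD stood at 188 CPM at 3 genes and 964 at 6, MKX at 93.0 and 327 CPM, and KERA at 1.18 and 101 CPM. The tendon genes and the fascial genes of the members thus had their highest levels in different cells. None of the 10 lowest genes was higher at 3 genes than at 2. Cells just below the threshold therefore resembled members in part, and the rule divides a range.

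**Figure D4:**
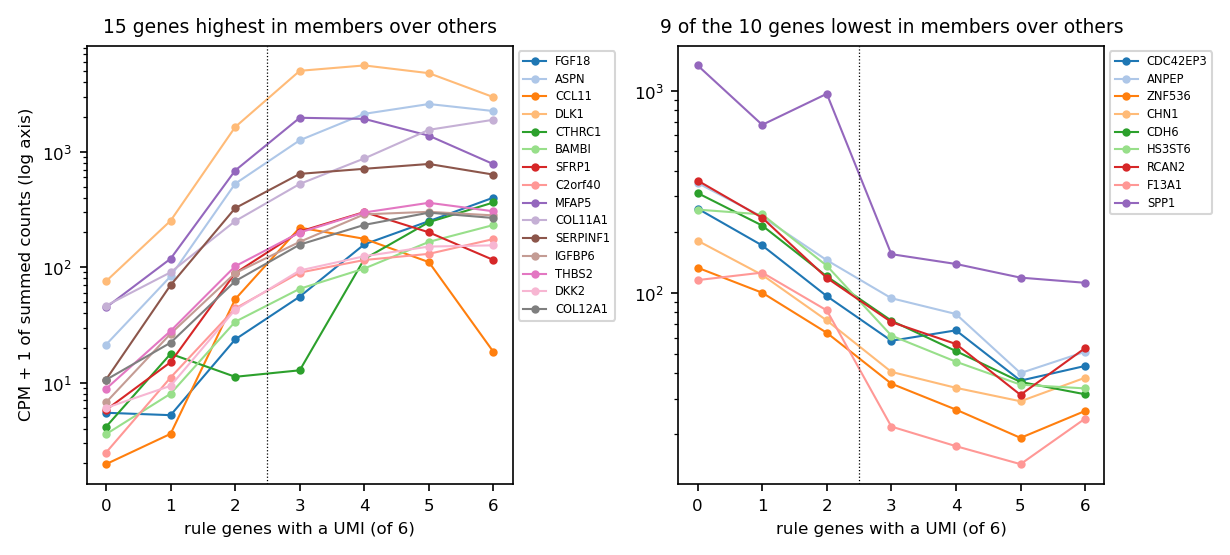
Level of the 15 genes highest and 9 of the 10 lowest in members relative to other cells, as CPM + 1 of summed counts on a log axis, in E60 cells grouped by the number of rule genes with a UMI; the dotted line is the rule's threshold. DLK1 goes from 74.5 CPM in cells with none to 5596 with 4 and 2972 with all 6, while COL11A1 reaches 1893 with all 6.

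In a clustering of all E60 cells into 26 clusters, the members did not form 1 cluster. Cluster 3 (502 cells, led by MAP1LC3C, SEMA3C, EFHD1, SERPINF1 and SMOC2) held 255 of them, which is 31.1% of members and 50.8% of the cluster. Cluster 10 (264 cells, led by CCL11, MGP, CAPN6, SFRP1 and FRZB) held 222, or 27.1% of members and 84.1% of the cluster. Cluster 14 (137 cells, led by KERA, COL2A1, TAC1, TNMD and CTHRC1) held 136, which is 16.6% of members and 99.3% of the cluster. Cluster 18, led by FBLN7, C2orf40 and genes of cell division, held 86, and cluster 17, with CYTL1 and IGF1, held 57. Cluster 17 had a median of 13650.5 UMIs per cell. The rule therefore took almost all of the KERA and COL2A1 cluster and about equal numbers inside and outside it from the SEMA3C and SMOC2 cluster. With the rule genes left out of the clustering, the 5 clusters with most members held 257, 220, 140, 86 and 53 members.

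Clustered on their own, without the rule genes, the members fell into 7 sub-clusters, which are descriptions of how the cells vary. Sub-clusters 1 and 2 made up 26.8% and 24.4% of members. Sub-cluster 1 (220 cells) was led by MAP1LC3C, EFHD1, BMP4, SEMA3C and LMCD1, and had 6376 CPM of DLK1, 2618 of MFAP5 and 1498 of SMOC2. Its TNMD stood at 1043 CPM, but COL2A1 at 8.48 and KERA at 0.565 CPM. Sub-cluster 2 (200 cells) was led by MGP, CCL11, CAPN6, FRZB and AQP4, and had 8052 CPM of DLK1, 1024 of CAPN6, 511 of SFRP1 and 981 of CYTL1. Its TNMD was low, 198 CPM in 32.0% of cells, and its COL2A1 stood at 54.2 CPM. These 2 sets differed from each other in TNMD, BMP4 (103 and 3.83 CPM) and CCL11 (51.4 and 491 CPM), while both were high in DLK1, MFAP5 and ASPN.

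Sub-clusters 5 and 7 had the highest levels of TNMD, THBS4, COL2A1, KERA and MKX. Sub-cluster 5 (87 cells, 10.6% of members) was led by S100A4, KERA, CTHRC1, TAC1 and COL2A1. It had 5144 CPM of TNMD, 2582 of THBS4, 952 of COL2A1, 254 of KERA, 1640 of FMOD, 2669 of COL11A1, 755 of FGF18 and 430 of MKX. Of its cells, 81.6% had a COL2A1 UMI, 62.1% a KERA UMI and 89.7% a CTHRC1 UMI. S100A4 was carried by few of them, 25.3% of cells. SOX9 was at 0 here, ACAN at 8.29 CPM, and 3 of the 4 SCX UMIs of the members were in these cells, a level of 4.15 CPM. DLK1 was lower than in sub-clusters 1 and 2, at 2134 CPM, and MFAP5 stood at 343 CPM.

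Sub-cluster 7 (44 cells, 5.37%) was led by CXCL10, CCK, ATP1B1, CHODL and THBS4. It had 4999 CPM of THBS4, 5103 of TNMD, 721 of COL2A1, 162 of KERA and 678 of MEOX2. COL2A1 was found in 97.7% of its cells and MKX in 93.2%. It differed from sub-cluster 5 in CTHRC1 (208 against 879 CPM), S100A4 (0 against 312 CPM), CHODL (281 against 23.5 CPM) and MEOX2 (678 against 99.5 CPM). Of the 87 and 44 cells, 72 and 32 carried 5 or 6 rule genes, and SOX9 was at 0 in both sets.

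The remaining sub-clusters were led by genes of division or of other cell types. Sub-cluster 3 (112 cells) was led by CDCA3, CDCA2, ASPM, CENPF and TOP2A, with a summed cell-cycle level of 5659 CPM, and sub-cluster 6 (53 cells) by CCL21 and the replication genes MCM5, CLSPN, HELLS and MCM3. The CCL21 of sub-cluster 6 came from 1 cell, which held 525 of 526 UMIs. Sub-cluster 4 (104 cells, median 13487.5 UMIs) was led by DEPP1, PLVAP, LMO2, HBAII and SOX18, genes of endothelium and red cells, with summed endothelial and erythroid levels of 205 and 836 CPM. Single cells carried much of these: 65.8% of its HBAII came from 1 cell. In a doublet search over E60, 69 of the 104 cells of sub-cluster 4 and 16 of sub-cluster 3 were called doublets, and none of sub-clusters 1, 2, 5, 6 and 7. Of all members 85 were called (10.4%), against 3.40% of the other cells, and they were not removed. The search called 50.9% of simulated doublets. Without them the members numbered 735, 347 genes were at least 2-fold higher and 222 lower.

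**Figure D5:**
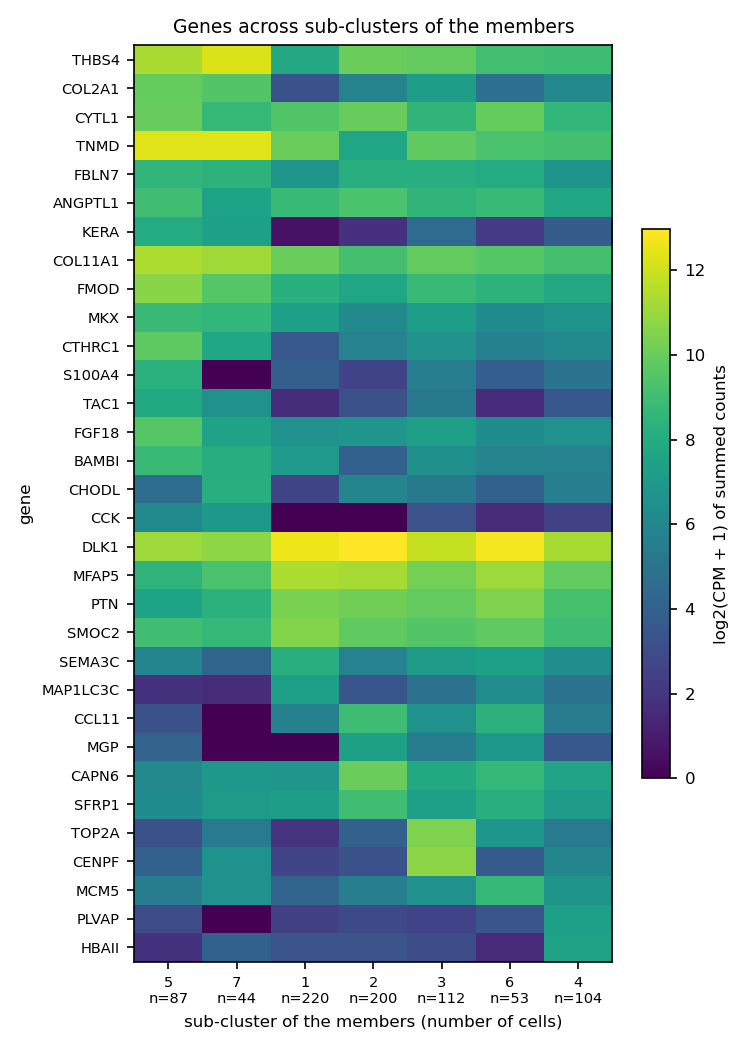
Levels of rule genes and leading genes, as log2(CPM + 1) of summed counts, in the 7 sub-clusters of the members (columns, with the number of cells); brighter is higher. Sub-clusters 5 and 7 have the highest COL2A1, KERA and TNMD (5144 and 5103 CPM of TNMD), sub-clusters 1 and 2 the highest levels of MFAP5 (2618 and 2457 CPM), sub-cluster 3 the division genes and sub-cluster 4 PLVAP and HBAII.

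The cells with COL2A1 were then read as a set, a choice made after its values were seen. The 209 members with a COL2A1 UMI had 3532 CPM of TNMD, against 555 CPM in the 611 members without. KERA stood at 147 against 1.05 CPM, FMOD at 969 against 247 CPM, MKX at 308 against 110 CPM and COL11A1 at 1882 against 727 CPM. CYTL1 stood at 662 and 666 CPM. As a member without COL2A1 must carry 3 or more of the other 5 rule genes, these values follow in part from the rule. Over all E60 cells, CYTL1 stood at 415 CPM in those with a COL2A1 UMI and 66.8 CPM in those without. SOX9 had 2 UMIs in the members with COL2A1, under the floor of 3 counts, and 5 in those without, so no difference could be read. All 8 ACAN UMIs of members were in cells with COL2A1, a level of 3.81 CPM. HAPLN1 was not gathered there, with 4 UMIs (1.90 CPM) in members with COL2A1 and 15 (2.62 CPM) in those without, and 0 in sub-cluster 5. In the 157 E60 cells with at least 3 COL2A1 UMIs, members or not, TNMD stood at 4172 CPM, COMP at 16.1 CPM and COL11A2 at 14.9 CPM, and SOX9 had 1 UMI. Of the COL2A1 UMIs of E60 skin, 1433 lay in members and 166 in the other cells, and those members had high TNMD, KERA and FMOD and SOX9 near 0.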

How the data were processed

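Single-cell libraries were made with a 10x Genomics 3′ kit per the labels' protocols, and reads were processed with Cell Ranger 3.0.2 per the submitters' processing notes. The genome build, annotation and cell filters are not given in the sources used here. The deposited values are natural log values: ln of 1 plus the count per 10000 UMIs of the cell, worked out from the values. Counts had been planned for, so UMIs were recovered by undoing the scaling, and 100% of values above 0 came out whole within 0.01. Of 16739 genes, 12709 carried symbols and 4030 Ensembl IDs, and 11897 symbols were found in RefSeq (ARS1.2).

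UMIs were summed over members and over all other E60 cells and scaled to CPM, and the log2 ratio of CPM + 1 was taken for genes with at least 20 CPM in either sum. Poisson and binomial intervals are exact at 95%, and 3 counts were the floor. Clusters came from 2000 variable genes, 30 components, 20 neighbours and Leiden resolution 1, and sub-clusters of the members from 1000 genes, 20 components and resolution 0.5 (leidenalg 0.10.2, scikit-learn 1.9.0). Doublets were called by comparison with simulated pairs, 2 per cell, and stayed in the main values. Levels are compared within a gene only.

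Genes named are the rule genes, the 15 highest and 10 lowest symbols with at least 100 CPM (without ribosomal, mitochondrial and haemoglobin genes), the 4 most different genes of each list, 15 genes always named (COL9A1, MATN1 and GDF5 were not in the table), and the 5 leading genes of each sub-cluster. A few genes that the rule names are not reported here. Further list members are named to show a list's other side. Members and lists were chosen with earlier results of these data known. Alternatives covered the rule, depth, minimum level, pseudocount, weights, the comparison cells, doublets and the clustering.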

Additional observations from a re-analysis of the deposited data

How the results depend on the processing

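The share of E60 cells that are members was 12.0%. It was 18.3% with at least 2 genes required and 8.10% with at least 4, 13.2% with at least 2 of THBS4, COL2A1, CYTL1 and TNMD, 10.4% with cells reduced to 6000 UMIs and 11.2% without called doublets. With 1 gene left out of the rule it was 9.77% (THBS4), 10.4% (CYTL1), 9.43% (TNMD), 10.1% (FBLN7), 8.75% (ANGPTL1) and 11.8% (COL2A1). Of 316 higher and 193 lower genes, the counts were 124 and 60 with at least 100 CPM and 689 and 528 with no minimum. The lower count was 110 with at least 2 rule genes, and 426 without sub-clusters 3, 4 and 6, an alternative added after seeing the data. That alternative kept 309 of the 316 higher and all 193 lower genes. The largest share of members in 1 cluster, 31.1% in that led by MAP1LC3C and SEMA3C, was without called doublets 35.4% in that led by CCL11 and MGP, with 35.0% in the former. The cluster led by KERA then held 94 members, and no cluster had CYTL1 among its leading genes. Of 962 values (74 named genes past 2-fold under 13 alternatives), 955 kept their direction. The log2 ratios that reversed were, against other cells with a PDGFRA UMI, ACTC1 at 0.53, LYVE1 at 1.53, ESAM at 2.61 and MYOD1 at 0.37, with at least 2 rule genes LYVE1 at 0.60 and ESAM at 0.48, and against others without any rule gene ESAM at 0.30. The cause was not tested. No paired analysis was possible because each stage had 1 library. The 1-library design, pooled fetuses and members chosen on the same counts limit every comparison to these cells.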
